A study of Mus musculus with 9 samples.

Results

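The genes described are 32 neuronal and synaptic transcripts measured in microglia sorted from mouse visual cortex. They were chosen by symbol from a table of 45664 symbols, and the list was proposed with measured values of these data in view, namely the low level of neuronal transcripts in 1 saline library, saline 1, and their variation across libraries. Their levels in saline 1 are therefore given as a description, with no test. All 32 symbols were in the table, and 26 of them were among the 13067 genes that passed a filter on low counts. Gad1, Grin1, Grin2a, Nrxn3, Nefm and Thy1 did not pass and are given by their levels only.

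The mice were male C57BL/6 animals injected under the skin on postnatal days 4 to 9. The ethanol group (4 mice) received 1.8 g/kg of ethanol per injection as a 20% v/v solution, with 2 injections a day given 2 h apart, for 3.6 g/kg a day. The saline group (5 mice) received the same volume of saline on the same schedule. The ethanol mice were 35, 35, 30 and 30 days old at collection, and the saline mice 36, 30, 35, 29 and 30 days old. The labels give no genetic modification for either group. The bilateral visual cortex was depleted of myelin, and CD11b+ CD45low cells that excluded propidium iodide were sorted, so that the gate kept live cells with a microglial surface profile. Each library came from 1 mouse. The mice were born in 3 litters, but which litter a mouse belonged to is not stated in the labels.

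Microglia are the resident macrophages of the brain and do not form synapses. Most genes of the list are known from neurons, and several are also transcribed in other cells. At a synapse, SNARE proteins and their calcium sensors release transmitter from vesicles, glutamate receptors held by scaffold proteins receive it, and calcium-dependent kinases adjust the response. In bulk libraries, fewer cells of a type and less RNA per cell cannot be told apart.

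The labelled cell type was checked first. The summed level of 10 microglial markers was between 56087 and 65298 CPM (counts relative to library size after TMM scaling) in the 4 ethanol libraries. It was 63632 CPM in saline 1 and between 56130 and 57990 CPM in saline 2 to 5. The highest of these markers was Csf1r, the receptor for the main microglial growth factor, at 20844 CPM in saline 1 and 18077 to 20086 CPM in the other 8 libraries. The 32 neuronal transcripts held between 0.00290% and 0.0679% of all counts. Library totals ran from 12816198 to 28859244 counts, and 1 count was worth between 0.0345 and 0.0794 CPM.

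The promoters of 3 of these genes are shown because they represent the range of behaviour described below. Syn1 was low in saline 1 and its window held both neuronal and activity-linked motif letters, Hpcal4 had 2 counts in saline 1 and 168 to 682 in the others, and Camk2b was at its usual level there. RefSeq promoters on GRCm38.p6, 300 bases long and placed around an annotated start, were found for 21 of the 32 genes, with 30 promoters in all. Each sequence reads 5′ to 3′ on the gene's strand. Capitals mark the letters TTCAGCACC (the left half-site of RE1, the element bound by the neuronal repressor REST) and TGACGTCA (the cyclic AMP response element) in Syn1, and GGGCGG (the GC box) in Hpcal4 and Camk2b. The windows are chrX:20920869-20921168 on the minus strand for Syn1, chr4:123183254-123183553 on the plus strand for Hpcal4 and chr11:6065699-6065998 on the minus strand for Camk2b.

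Syn1: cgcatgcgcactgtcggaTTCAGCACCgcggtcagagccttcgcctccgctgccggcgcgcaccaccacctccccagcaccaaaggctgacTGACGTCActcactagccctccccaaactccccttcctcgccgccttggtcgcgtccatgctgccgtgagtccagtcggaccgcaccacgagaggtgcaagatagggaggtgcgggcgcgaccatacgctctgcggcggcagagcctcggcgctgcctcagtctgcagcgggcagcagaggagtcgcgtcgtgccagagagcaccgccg

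Hpcal4: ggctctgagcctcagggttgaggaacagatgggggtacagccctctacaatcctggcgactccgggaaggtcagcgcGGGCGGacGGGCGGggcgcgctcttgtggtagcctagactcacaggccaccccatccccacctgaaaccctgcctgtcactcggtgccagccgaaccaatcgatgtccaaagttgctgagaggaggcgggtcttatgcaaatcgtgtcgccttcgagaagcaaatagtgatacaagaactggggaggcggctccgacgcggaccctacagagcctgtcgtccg

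Camk2b: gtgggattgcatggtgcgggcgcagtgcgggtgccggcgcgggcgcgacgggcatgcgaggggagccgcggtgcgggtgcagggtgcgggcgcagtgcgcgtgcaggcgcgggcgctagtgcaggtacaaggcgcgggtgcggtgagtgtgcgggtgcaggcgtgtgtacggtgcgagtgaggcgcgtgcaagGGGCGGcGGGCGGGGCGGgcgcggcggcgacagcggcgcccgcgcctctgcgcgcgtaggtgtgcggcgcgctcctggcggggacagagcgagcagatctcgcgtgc

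Both strands were searched. The RE1 left half-site letters stood in 1 of the 30 promoters (3.33%), that of Syn1, against 122 of all 32851 promoters of the same length (0.371%). The RE1 right half-site stood in 0 of the 30 and in 0.642% of all promoters. The cyclic AMP response element also stood in 1 of the 30 (3.33%), again that of Syn1, and in 1.79% of all promoters. The GC box stood in 18 of the 30 (60%) and in 35.7% of all promoters, and the TATA box letters TATAAA in 2 of the 30 (6.67%) and in 13.6% of all. These matches describe letters in a window and say nothing of binding.

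Together the 32 transcripts reached 350, 260, 277 and 662 CPM in ethanol 1 to 4, against 30.0, 321, 352, 294 and 585 CPM in saline 1 to 5. Saline 1 lay below all 8 other libraries, whose values spanned 260 to 662 CPM, and its sum was 7.75% of their mean of 388 ± 151 CPM (SD, n = 8). It rested on 536 counts in saline 1 and on 4408 to 13395 counts in each of the others. At least 1 count was found for 22 of the 32 genes in saline 1 and for 28 to 32 in the others. Apart from saline 1, the highest sums were in ethanol 4 and saline 5, and the groups overlapped.

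**Figure D1:**
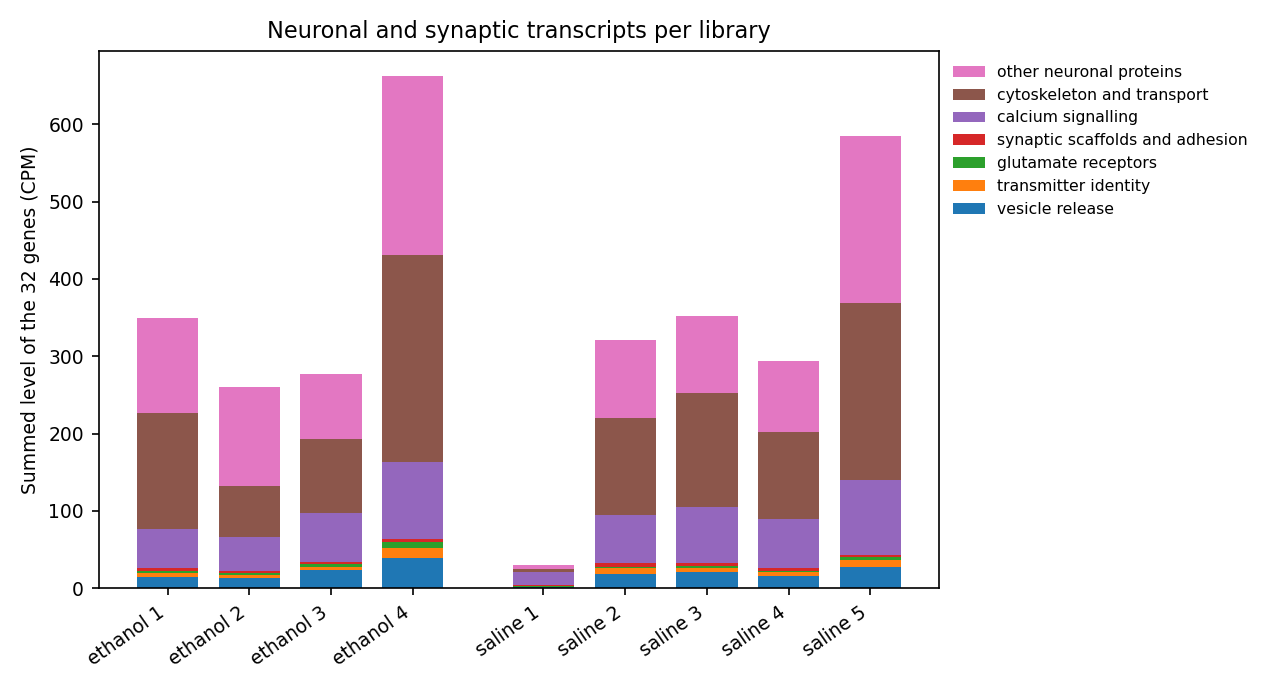
Summed CPM of the 32 neuronal and synaptic transcripts in each of the 9 libraries (1 mouse each), ethanol mice on the left and saline mice on the right, with the colours giving the functional groups. Saline 1 reaches 30.0 CPM, and the other 8 libraries 260 to 662 CPM, most of it from the cytoskeleton and transport group, the other neuronal proteins and calcium signalling.

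Saline 1 also differed from the rest in recorded measures. It came from the oldest mouse (36 days, others 29 to 35 days) and the heaviest (20.7 g, others 15 to 20 g), and held the fewest sorted cells (8923, others 9291 to 19071). Its dissected tissue (45 mg, others 22 to 53 mg) and its RNA integrity number (9.2, others 9 to 9.9) lay inside the range of the rest. It alone carries an X between the hyphens of its library name. The others carry 5 (saline 3 and 4, ethanol 1 and 2) or 6 (saline 2 and 5, ethanol 3 and 4) there. The sources used here do not say what this name part means. The part of these measures in the low neuronal transcripts was not tested, and the name part X and this 1 mouse cannot be told apart.

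Most of the summed level came from 3 genes. Kif5a encodes a neuronal kinesin that carries cargo along axons (chr10:127225696-127263348, minus strand, GRCm38). It stood at 145, 60.7, 89.3 and 255 CPM in ethanol 1 to 4, against 1.46, 118, 139, 107 and 217 CPM in saline 1 to 5. Saline 1 alone was near 0, at 26 counts, and the mean of the other 8 libraries was 97.0-fold higher (95% interval 66.2 to 149, from the exact Poisson interval of the saline 1 count). Here and below such intervals cover counting error in saline 1 only.

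Cpe encodes carboxypeptidase E, which trims prohormones and neuropeptides (chr8:64592542-64693054, minus strand). It was at 113, 111, 73.1 and 207 CPM in ethanol 1 to 4, against 4.26, 86.3, 80.5, 74.6 and 196 CPM in saline 1 to 5. The other 8 libraries averaged 27.6-fold above saline 1 (22.0 to 35). Camk2a encodes the alpha subunit of the calcium/calmodulin-dependent kinase of excitatory synapses. It was at 22.3, 13.2, 26.5 and 54.8 CPM in ethanol 1 to 4, against 3.31, 30.3, 37.5, 32 and 44.6 CPM in saline 1 to 5, a ratio of 9.87 (7.65 to 13) between the mean of the others and saline 1. In all 3 genes saline 1 was the lowest library, and in all 3 ethanol 4 was the highest. Together they made up 68.2% to 80.0% of the summed level in the other 8 libraries and 30.0% in saline 1.

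Among the genes of vesicle release, all 5 were more than 4-fold below the mean of the other libraries in saline 1. Snap25, a SNARE protein of the presynaptic membrane, was at 4.29, 4.35, 7.11 and 8.99 CPM in ethanol 1 to 4, against 1.40, 7.38, 4.66, 3.82 and 5.74 CPM in saline 1 to 5. Rims1, a scaffold of the presynaptic active zone, was at 3.18, 2.69, 5.90 and 16.8 CPM in ethanol 1 to 4, against 0, 6.45, 8.30, 7.30 and 12.2 CPM in saline 1 to 5. With 0 counts in saline 1, the mean of the other 8 was at least 46.6-fold higher, taking 3 counts in that library (0.168 CPM) as its limit. Snap25 in saline 1 rested on 25 counts and was 4.13-fold (2.80 to 6.39) below the mean of the others. Syn1 and Syn2, synapsins that hold vesicles in reserve, had 5 and 2 counts in saline 1, and Syt1, the calcium sensor for fast release, had 4.

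Transmitter identity was read from 3 genes. Slc17a7, the vesicular glutamate transporter of cortical excitatory neurons, was at 3.10, 3.77, 4.07 and 12.4 CPM in ethanol 1 to 4, against 0.168, 6.76, 4.22, 3.65 and 7.44 CPM in saline 1 to 5. The 3 counts in saline 1 gave a ratio of 33.8 (11.6 to 164). Gad1 and Gad2, the enzymes that make GABA, were sparse: Gad1 had 0 counts in 4 libraries and at most 1.09 CPM, and Gad2 ranged from 0.0553 to 1.43 CPM in the 8 libraries other than saline 1, where it had 0 counts.

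Glutamate receptor subunits were sparse, and Gria1 had the highest mean level in CPM of the 5. Gria1, an AMPA receptor subunit, was at 0.318, 1.12, 2.41 and 3.81 CPM in ethanol 1 to 4, against 0, 0.655, 0.540, 0.387 and 0.474 CPM in saline 1 to 5. Ethanol 2 to 4 lay above every saline library, and ethanol 1 lay below 4 of them. The AMPA subunit Gria2 and the NMDA subunits Grin1, Grin2a and Grin2b did not exceed 1.78 CPM in any library, and 4 of these 5 receptor genes had 0 counts in saline 1. In saline 1, 3 of the 5 were more than 4-fold below the mean of the rest.

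Scaffold and adhesion genes split. Dlg4, which encodes the postsynaptic scaffold PSD-95, was at 4.21, 2.11, 1.55 and 2.82 CPM in ethanol 1 to 4, against 2.30, 3.59, 2.85, 3.10 and 2.56 CPM in saline 1 to 5. Its ratio between the other libraries and saline 1 was 1.24 (0.913 to 1.73), an interval that includes 1. Shank3, another postsynaptic scaffold, had 1 count in saline 1 and 0.443 to 1.68 CPM elsewhere. Nrxn3, a presynaptic adhesion protein, did not pass the filter and reached at most 0.573 CPM.

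Calcium signalling held genes far below the rest in saline 1 and genes that were not. Hpcal4, a neuronal calcium sensor (chr4:123183227-123194701, plus strand), was at 13.3, 19.9, 19.4 and 29.5 CPM in ethanol 1 to 4, against 0.112, 18.6, 22.1, 14.0 and 32.3 CPM in saline 1 to 5. The 2 counts in saline 1 put the ratio at 189, with an interval from 52.2 to 1557. Camk2b, the beta subunit of the same kinase as Camk2a, was at 10.2, 6.80, 13.6 and 7.86 CPM in ethanol 1 to 4, against 12.4, 9.76, 8.35, 12 and 14.6 CPM in saline 1 to 5. Saline 1 lay inside the range of the others for Camk2b, on 222 counts, so that the alpha and beta genes of 1 kinase differed in this library. Nrgn, a calmodulin-binding protein of dendrites, was at 0.561 CPM in saline 1 and 2.78 to 6.13 CPM elsewhere. Vsnl1, a calcium sensor, was at 0.280 CPM in saline 1 and 0.290 to 1.19 CPM in the others.

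The remaining cytoskeletal genes were lower than Kif5a. Nefl, the light neurofilament subunit, was at 2.06, 2.53, 1.32 and 8.01 CPM in ethanol 1 to 4, against 0.0561, 4.21, 4.22, 2.21 and 5.55 CPM in saline 1 to 5; the 1 count in saline 1 gave a ratio of 67.1 (12 to 2652). Stmn2, a regulator of axonal microtubules, had 0 counts in saline 1 and 0.332 to 1.43 CPM elsewhere. Map1b, a microtubule-associated protein, was at 2.02 CPM in saline 1 and 1.53 to 4.36 CPM in the others, with a ratio of 1.51 (1.09 to 2.15). Nefl and the medium neurofilament gene Nefm overlap over 1108 exonic bases on the GENCODE M21 annotation. Whether the counting used strand is not stated, so the counts of both genes are uncertain.

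In the last group, Olfm1, a secreted neuronal glycoprotein, was at 6.67, 12.3, 6.53 and 17.4 CPM in ethanol 1 to 4, against 0.112, 8.45, 11.5, 12.6 and 15.0 CPM in saline 1 to 5. The ratio was 101 (27.9 to 832), on 2 counts in saline 1. Rbfox3, the splicing factor known as the nuclear antigen NeuN, was at 0.224 CPM in saline 1 and 0.953 to 2.36 CPM elsewhere. Chn1, a Rac-regulating protein of axons, was at 0.505 CPM in saline 1 and 1.38 to 3.48 CPM elsewhere. Thy1, a surface protein of projection neurons, had 0 counts in 4 libraries, saline 1 among them, and at most 0.494 CPM.

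**Figure D2:**
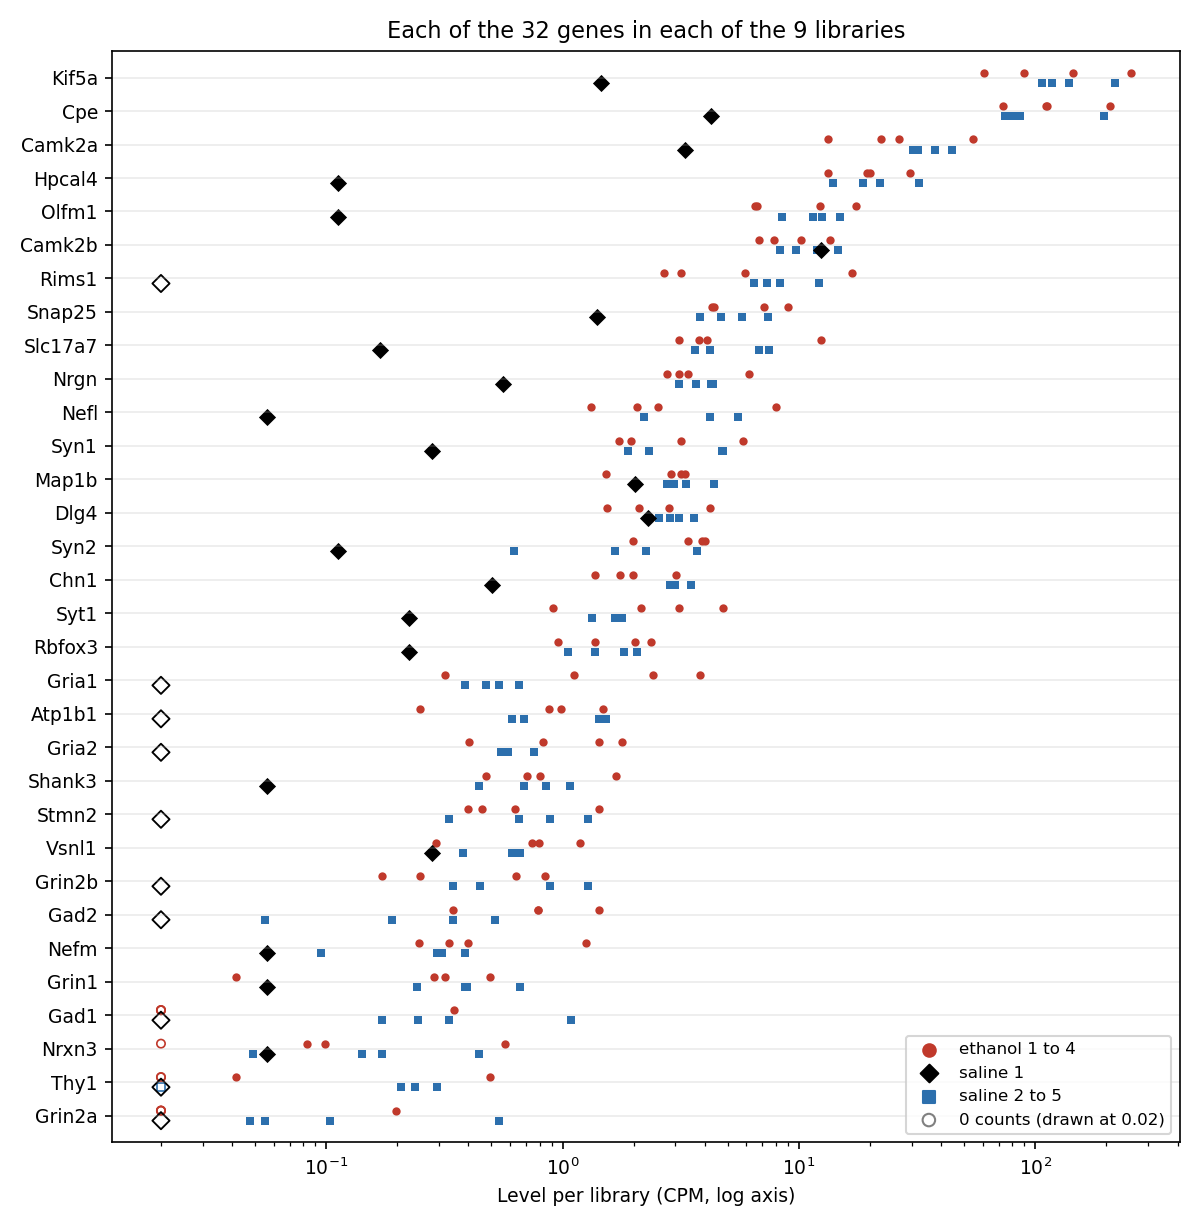
Level of each of the 32 genes in each library, in CPM on a logarithmic axis, with values of 0 drawn at 0.02 CPM. Saline 1 lies below the other 8 libraries for 24 genes and inside their range for Camk2b (12.4 CPM), Dlg4 (2.30 CPM), Map1b (2.02 CPM) and the sparse genes Grin1 and Nrxn3 (0.0561 CPM each).

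Over the 32 genes, saline 1 was the lowest of the 9 libraries for 24, 23 of them among the 26 that passed the filter. Over all 13067 genes tested it was the lowest for 13.9%. The exceptions were Camk2b, Dlg4, Map1b, Grin1, Nrxn3, Gad1, Grin2a and Thy1, of which Gad1, Grin2a and Thy1 were at 0 in at least 1 other library as well. A ratio could be given for 30 genes, since Grin2a and Thy1 were under the limit of 3 counts on both sides. Of these 30, 22 were more than 4-fold below the mean of the other 8 in saline 1. Of the 26 that passed the filter, 20 were, against 3.57% of all genes tested. With genes at 0 set to that limit, the median log2 difference of saline 1 from the mean of the rest was -2.81 for the 30, -5.08 for the 9 genes with a mean of at least 5 CPM, and -0.01 over all genes tested. Since the list was made with saline 1 in view, these counts describe it and give it no support.

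Compared per kilobase of merged exons, in the mean of the 8 libraries other than saline 1, Cpe stood highest at 45.1 CPM per kb and Kif5a next at 20.2. Camk2a (4.37), Hpcal4 (3.96), Olfm1 (3.18) and Nrgn (2.65) followed. Camk2b (1.14), Nefl (1.11), Rims1 (1.07), Slc17a7 (1.05), Syn1 (0.999) and Snap25 (0.853) lay close together, within the spread of the libraries. Snap25, Stmn2, Thy1 and Atp1b1, the beta subunit of the sodium pump, are abundant mRNAs of cortical neurons. Here Atp1b1 was at 0.318 CPM per kb, Stmn2 at 0.135 and Thy1 at 0.0532. Per kb, Kif5a was 23.7 times Snap25 and 149 times Stmn2. These ratios depend on the length used, since merged exons exceed the longest transcript by unlike amounts. The 2 lengths were 6990 and 6295 bases for Kif5a, 6791 and 4880 for Snap25, and 5602 and 3413 for Stmn2.

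The 8 libraries other than saline 1 varied among themselves too. Of the 26 genes that passed the filter, ethanol 4 held the highest value of the 9 libraries for 16, and saline 5 for 4. Over all genes tested these libraries were the highest for 10.5% and 7.59%. They also came from the largest pieces of dissected tissue (53 and 48 mg, others 22 to 45 mg), whose part in this was not tested. Ethanol 2 was the lowest of the 8 for 9 of the 26 genes (Syt1, Syn1, Rims1, Camk2a, Camk2b, Vsnl1, Kif5a, Map1b and Atp1b1). It was the lowest of the 8 for 27.7% of all genes tested as well, so the count is not read as a trait of the list. Its ratio of Kif5a to Cpe was 0.546, while the ratio was 1.11 to 1.73 in the other 7 and 0.342 in saline 1.

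**Figure D3:**
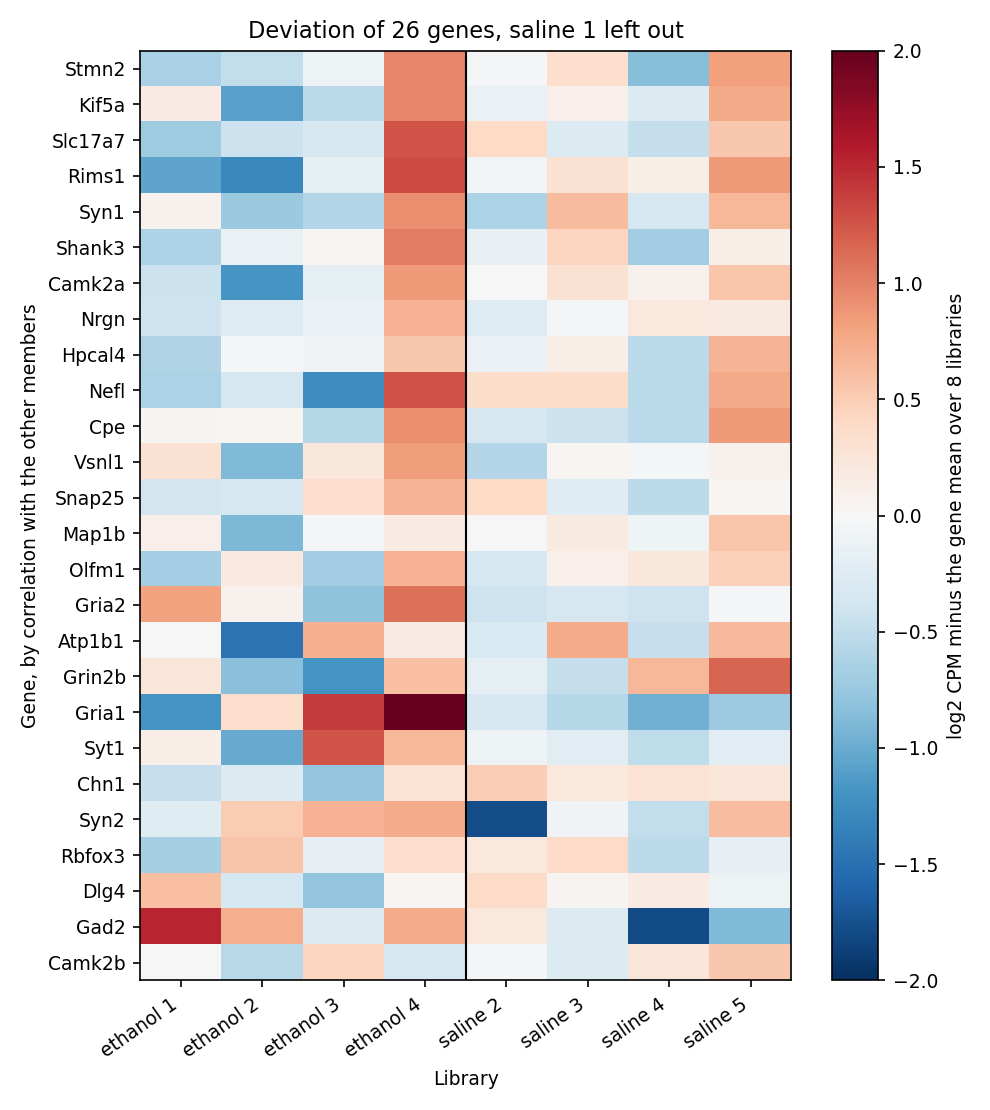
Log2 CPM of each of the 26 genes that passed the filter minus its mean over the 8 libraries other than saline 1, for those 8 libraries, ethanol mice on the left. Ethanol 4 is the highest of the 9 libraries for 16 of the 26 genes, and Camk2b is below its mean there.

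Each gene was correlated, over these 8 libraries, with the mean log2 CPM of the other genes of the list. The libraries share their depth and preparation, and the values are given as descriptions. The median Pearson r was 0.624 over the 26 genes (median Spearman rho 0.512) and 0.0582 over all genes tested. An r of at least 0.8 was reached by 7 of the 26, against 1.09% of all genes tested. These 7 were Stmn2 (0.902), Kif5a (0.872), Slc17a7 (0.863), Rims1 (0.827), Syn1 (0.825), Shank3 (0.812) and Camk2a (0.812). The lowest were Camk2b (-0.0451), Gad2 (-0.0178) and Dlg4 (-0.0107). The relation rested largely on the 2 libraries farthest from the median level, ethanol 4 and saline 5. Over the 6 others the median r was 0.236 for the 26 genes and 0.0169 for all genes tested. There, an r of at least 0.8 was reached by 1 of the 26 (3.85%) and by 3.47% of all genes tested. Over those 6 libraries Kif5a stood at 0.646, Camk2a at 0.660 and Cpe at -0.442.

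Outside the list, the genes most like it over the 8 libraries, among those with a mean of at least 5 CPM and leaving out predicted genes, were Map2 (r = 0.976), Rundc3a (0.954), Kif5c (0.945), Palm (0.941), Ppp2r2c (0.939) and Tmem181b-ps (0.929). Map2, a microtubule-associated protein of dendrites, was at 7.94, 7.01, 10.4 and 20.6 CPM in ethanol 1 to 4, against 0, 9.83, 11.2, 8.69 and 14.5 CPM in saline 1 to 5. Like most of the 32 genes it was lowest in saline 1, where the mean of the others was at least 67.0-fold higher. Kif5c, a kinesin related to Kif5a, was at 0.785 CPM in saline 1 and 8.96 to 45.3 CPM elsewhere. Tmem181b-ps was not low in saline 1 (7.12 CPM, others 6.22 to 11.1 CPM); it is annotated by name as a pseudogene, and reads it shares with related copies make its count uncertain.

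A separate list of 56 other neuronal genes did not behave as a block. In the 34 that passed the filter, the median log2 difference of saline 1 was -1.70, and saline 1 was the lowest library for 21. Over all genes tested the median was -0.01, saline 1 was the lowest for 13.9%, and 3.57% were more than 4-fold lower in it. In the list, 28 genes had a mean of at least 1 CPM in the other 8 libraries. Of these, 14 were more than 4-fold lower in saline 1 and 12 were within 2-fold. The 3 highest were Tubb2a, a tubulin (91.8 CPM in saline 1, others 80.1 to 99.8 CPM), Vamp2, a vesicle SNARE (66.9 CPM, others 68.5 to 106 CPM), and Ncdn, a neuronal protein, whose mean in the others was 1.18-fold its level in saline 1.

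Markers of further cell types that might pass the gate were read beside these genes. For astrocytes, 12 of 14 markers were more than 4-fold lower in saline 1, against 3.57% of all genes tested. Their summed level was 309 CPM in saline 1 and 379 to 563 CPM in the others, and 4 of the 14 were at 0 in saline 1. Slc1a3, the highest, was at 267 CPM in saline 1 and 240 to 331 CPM in the others, whereas Slc1a2, the main glutamate transporter of mature astrocytes, was at 0.505 CPM in saline 1 and 16.6 to 70.7 CPM in the others. For oligodendrocyte precursors, the summed level was 0.841 CPM in saline 1 and 5.50 to 18.1 CPM in the others, and Bcan was at 0 in saline 1. Of their markers, 2 had a mean of at least 1 CPM in the other 8 libraries. In saline 1, 2 of those 2 were more than 4-fold lower. For oligodendrocytes this held for 2 of 5, with a sum of 198 CPM in saline 1 and 208 to 263 CPM elsewhere. It held for 0 of 10 microglial markers and for 0 of 2 endothelial and pericyte markers at that level. Border macrophages, lymphocytes, and monocytes and neutrophils had only 1 marker each at that level, and it held for none of them. The part of these cells in the neuronal transcripts was not tested.

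The comparison the study was built on asks whether ethanol given early in life leaves a difference in microglial RNA in adolescence. None of the 26 neuronal and synaptic genes that passed the filter was called different between ethanol and saline mice, by edgeR's quasi-likelihood test at an adjusted p of 0.05, and 0% of all 13067 genes tested were called. At an unadjusted p under 0.05 there were 2 of the 26, Gria1 and Gad2, against 2.95% of all genes (386). DESeq2 and limma-voom called 0 genes as well, with 435 and 504 at an unadjusted p under 0.05. All 26 genes overlapped between the groups; over all genes tested, 0.658% were higher in every ethanol than in every saline library and 0.628% lower.

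Kif5a averaged 137 ± 85.7 CPM in ethanol mice (SD, n = 4) and 117 ± 77.4 CPM in saline mice (n = 5), a log2 fold change of 0.24 ± 0.82 (SE; adjusted p = 0.983, edgeR). Its 95% interval reached from -1.58 to 2.06, so a level up to 4-fold higher in ethanol mice lay inside it. Cpe averaged 126 ± 57.0 CPM in ethanol and 88.2 ± 68.6 CPM in saline mice, with a log2 fold change of 0.51 ± 0.69 (adjusted p = 0.963, edgeR). Camk2a averaged 29.2 ± 17.9 CPM in ethanol and 29.5 ± 15.7 CPM in saline mice, a log2 fold change of -0.02 ± 0.58 (adjusted p = 0.998, edgeR). Hpcal4 averaged 20.5 ± 6.66 CPM in ethanol and 17.4 ± 11.8 CPM in saline mice, a log2 fold change of 0.24 ± 0.71 (adjusted p = 0.980, edgeR). For each of these 4 genes the difference was smaller than the spread between mice of 1 group.

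The 3 smallest p-values belonged to sparse genes. Gria1 averaged 1.91 ± 1.53 CPM in ethanol and 0.411 ± 0.250 CPM in saline mice, with a log2 fold change of 2.18 ± 0.74 (unadjusted p = 0.0129, adjusted p = 0.963, edgeR); it was higher than every saline library in 3 of 4 ethanol libraries. Gad2 was at 1.43, 0.788, 0.344 and 0.791 CPM in ethanol 1 to 4, against 0, 0.517, 0.344, 0.0553 and 0.190 CPM in saline 1 to 5, with a log2 fold change of 1.78 ± 0.72 (unadjusted p = 0.0294, adjusted p = 0.963, edgeR). Syt1 was at 2.14, 0.912, 4.76 and 3.11 CPM in ethanol 1 to 4, against 0.224, 1.79, 1.67, 1.33 and 1.66 CPM in saline 1 to 5, with a log2 fold change of 1.01 ± 0.54 (unadjusted p = 0.0891, adjusted p = 0.963, edgeR). In each of the 3, at least 1 ethanol library lay below a saline library, and none passed the adjustment over all genes tested.

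The sign of the median log2 fold change rested on single libraries. With saline 1, 20 of the 26 genes had a log2 fold change above 0, against 49.8% of all genes tested, with a median of 0.24 and a range from -0.34 to 2.18. Without saline 1, 12 of the 26 were above 0, against 49% of 13001 genes, with a median of -0.08 and a range from -0.64 to 1.89, and 8 genes changed sign. Leaving out ethanol 4 instead put the median at -0.10, and leaving out saline 5 put it at 0.48, over the 24 genes that then passed the filter. Without saline 1, 0% of genes were called and 3.39% (441) had an unadjusted p under 0.05, among them Gria1 and Gad2. Kif5a then had a log2 fold change of -0.08 ± 0.41, Cpe 0.21 ± 0.38, Camk2a -0.30 ± 0.37 and Hpcal4 -0.08 ± 0.29. The median SE over the 26 genes was 0.65 with saline 1 and 0.44 without it. All 26 genes also overlapped between ethanol and saline 2 to 5, where 1.26% of all genes were higher and 1.36% lower in every ethanol library.

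**Figure D4:**
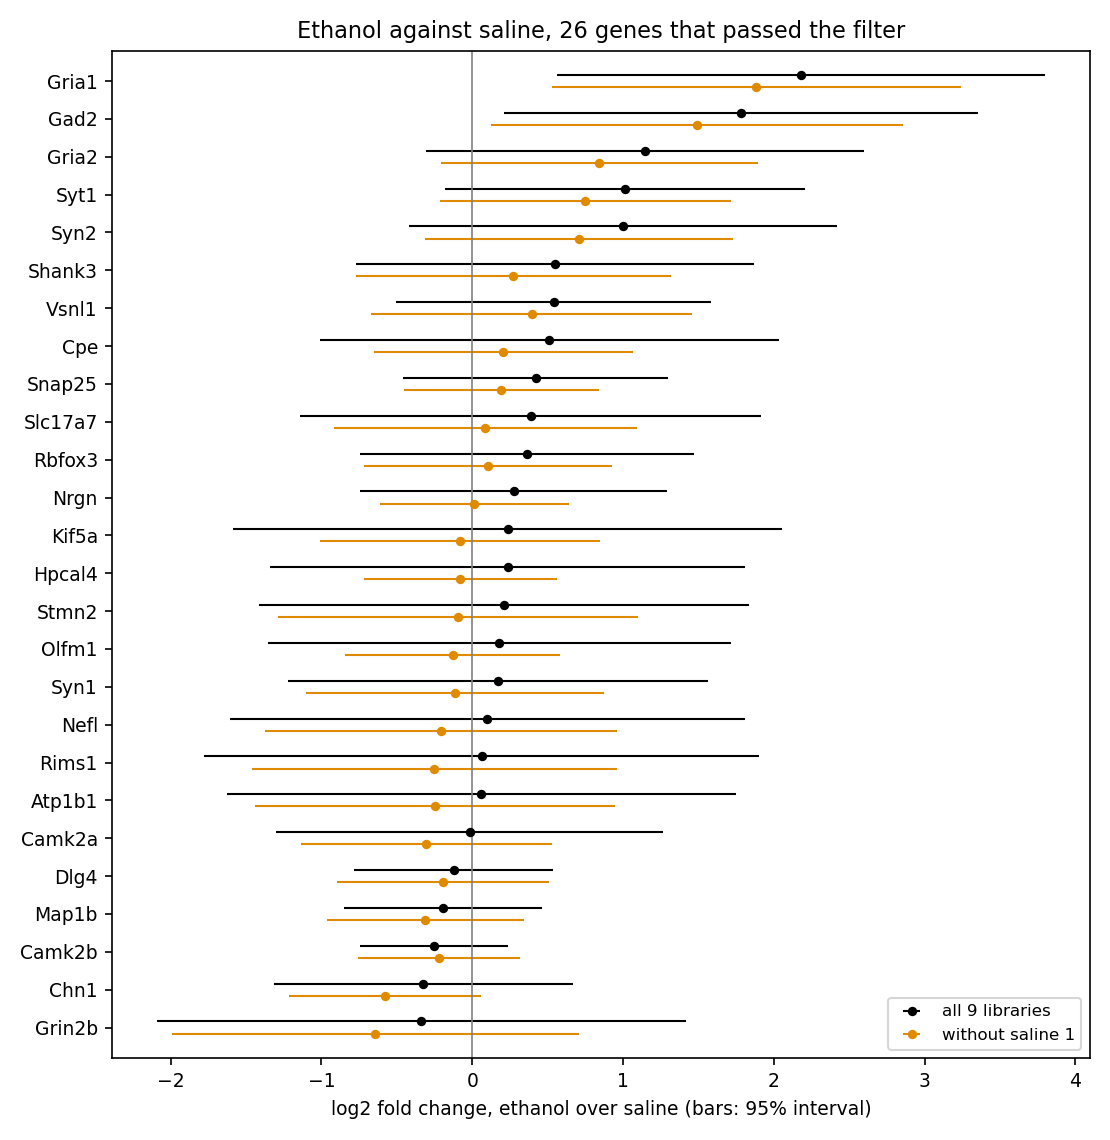
Log2 fold change of ethanol over saline with its 95% interval for the 26 genes that passed the filter, from all 9 libraries and without saline 1. Leaving out saline 1 lowers the median SE from 0.65 to 0.44, while the intervals of Camk2b, Dlg4 and Vsnl1 become wider. The median log2 fold change is then -0.08, against 0.24 with saline 1. The intervals of Gria1 and Gad2 lie above 0 in both fits.

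Among the 4 libraries with name part 5, the median log2 fold change of the genes was -0.27 (25 genes). It was 0.17 among the 4 with name part 6 (26 genes). It was 0.33 among the younger mice (29 and 30 days) and 0.49 among the older mice (35 and 36 days, 24 genes). No gene was called in any of these. The older saline mice were saline 1 and saline 3, so the value of the older mice includes the low library saline 1. The other neuronal genes had 0 of 34 called, with 21 above 0 and a median of 0.11, and a median of 0.01 over 33 without saline 1.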

How the data were processed

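Microglia of 9 mice were sorted and sequenced, 1 library per mouse. The authors deposited raw counts of reads per gene symbol, whole numbers with no normalization, made with Trimmomatic 0.32, STAR 2.4.2a and HTSeq 0.6.1 on GRCm38.p4, per the submitters' processing notes. The counting settings, strand included, are not stated there. Values are uncertain for members whose exons overlap a neighbour (Nefl, Nefm, Syn1, Syn2, Grin1, Grin2b, Gria2, Shank3, Nrxn3, Atp1b1 and Chn1).

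The 32 genes and all gene lists were chosen with earlier results of these data known. Low counts were filtered with filterByExpr of edgeR (minimum count 10, not required in every library, and 15 in total). Counts were scaled by TMM to CPM, and log2 CPM used a prior count of 2. The 4 ethanol and 5 saline libraries were compared across all genes with edgeR's quasi-likelihood test (edgeR 4.0.16, R 4.3.3) and Benjamini-Hochberg adjustment at 0.05. SE and 95% intervals were derived from log2 fold changes and F statistics. The code was tested on simulated data. Saline 1 was set against the other 8 by ratios of CPM with exact Poisson intervals and a limit of 3 counts for a count of 0; both cover counting error only.

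Fold changes were named for the 4 genes with the highest mean CPM and the 3 with the smallest p. From the other neuronal genes the 3 highest were named, and of genes most like the list the 6 with the highest r. Slc1a2 was named after its values were seen. Lengths and coordinates came from GENCODE M21 on GRCm38, and promoters from RefSeq on GRCm38.p6. Alternatives were DESeq2 1.42.0, limma-voom (limma 3.58.1), other size factors and filters, covariates, subsets and leaving out each library.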

Additional observations from a re-analysis of the deposited data

Results flagged for a closer look

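Within each treatment group, the distance of the highest or lowest library to its nearest neighbour was divided by the range of the group, on the log2 CPM scale, for every one of the 32 genes and for their sum. Chance singles out about 1 in 20 groups that were not chosen on their values. These genes were listed with saline 1 in view, so that rate does not apply to saline 1, and its gaps are a description and no test. Saline 1 stood far below the other 4 saline libraries for 13 genes and for the sum. The share of the range taken by the gap was 0.893 for Chn1, 0.865 for Rims1, 0.864 for Olfm1, 0.857 for Kif5a, 0.849 for Syt1, 0.849 for Camk2a and 0.843 for Gria2. It was 0.833 for Hpcal4, 0.823 for Nrgn, 0.799 for Gria1, 0.789 for Slc17a7, 0.747 for Nefl, 0.747 for Cpe and 0.768 for the sum of all 32 genes.

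A library stood above its group for 2 sparse genes that had not passed the filter. Nrxn3 was high in ethanol 3 (0.851 of the range), on 10 counts, and Grin2a was high in saline 3 (0.753 of the range), on 11 counts. On the log2 CPM scale the prior count of 2 weighs on genes with so few counts. The 66 groups looked at share libraries and include those of saline 1, so these 2 cases cannot be set against the rate of 1 in 20. They are given as a description and are not read as a trait of these libraries.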

How the results depend on the processing

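No gene was called between ethanol and saline mice under any alternative run, and leaving out each library in turn left 0 genes and 0 of the list called. The median log2 fold change of the 24 to 26 genes of the list that passed the filter in each such fit ranged from -0.10 (without ethanol 4, 26 genes) to 0.48 (without saline 5, 24 genes), and that of the other neuronal genes from -0.10 to 0.24. Leaving out 1 library moved Kif5a between -0.25 and 0.59, Cpe between 0.16 and 1.04, Camk2a between -0.52 and 0.23, Hpcal4 between -0.0788 and 0.58, Gria1 between 1.61 and 2.52, and Syt1 between 0.60 and 1.31. Gad2 lay between 1.45 and 2.05 in 5 of the 9 fits and did not pass the filter without saline 2, saline 3, saline 5 or ethanol 2.

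Within libraries of name part 5, the median was -0.27 for the list and -0.15 for the other neuronal genes. Kif5a was at -0.26, Hpcal4 at -0.11 and Syt1 at -0.0141. Within those of name part 6, Cpe was at -0.0048, Camk2a at 0.12 and Hpcal4 at -0.0547. With the name part as a covariate, Kif5a was at -0.11 and Hpcal4 at -0.0823. Camk2a was at 0.0753 with limma-voom, 0.0349 with age as a covariate and 0.19 in younger mice, and Hpcal4 at -0.0608 without saline 1 and ethanol 2; the cause was not tested. The log2 difference of saline 1 was -5.08 for genes with a mean of at least 5 CPM. An alternative chosen after seeing the data, leaving out saline 1 and the 2 libraries farthest from the median level, put the median correlation at 0.236, against 0.624.

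Deviations of same-numbered mice correlated at -0.0158, -0.0101, -0.0542 and -0.0141, and those of different-numbered mice at -0.338 to 0.237. These values do not show a pairing by replicate number and cannot exclude one, since the litter of each mouse is not stated. The fit with a replicate block also leaves out saline 5, which has no partner. It called 0 genes, with a median of 0.65 over 24 genes of the list, against 0.48 without saline 5 and with no block, and Camk2a was at 0.34. Depth limits the genes under 1 CPM, 13 of the 32, which had at most 36 counts in any library, and the saline 1 ratios that rest on 1 to 5 counts.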
